A study of Caenorhabditis elegans with 2 samples.

Results

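The 452 regions described here are the second tier of a chromatin immunoprecipitation sequencing (ChIP-seq) map of NHR-237, lying just below the peaks that passed the authors' irreproducible discovery rate (IDR) threshold. They were chosen by the authors' signal value in the list of 30000 candidate regions called on the pooled replicates. Ranks 49 to 500 were taken, the strongest candidates outside the 48 IDR peaks in genome build ce11. The IDR list in build ce10 held 60 peaks, so the upper limit of the second tier depends on the build. The authors name the list of 30000 as peaks and background used as input for IDR, so being listed does not make a region a peak. All 48 IDR peaks were the 48 candidates of highest pooled signal, so the 452 regions continue that ranking without a gap. The pooled signal contains both replicates, so signal and replicate ranks are given as description and no test was made on them.

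The worms were Caenorhabditis elegans of strain OP228, genotype unc-119(ed3) III with the insertion wgIs228, which supplies eGFP-tagged nhr-237. Whole L3 larvae, pooled male and female, were profiled in 2 biological replicates of this 1 group and 1 strain, with fragments of 150 to 350 bp. The labels name a possible control experiment, which was not analysed here, and the labels do not name the promoter that drives the tagged gene. The signal averages over all cells of the larva, so binding in few cells and weaker binding in many cannot be told apart.

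Nuclear hormone receptors are transcription factors that bind DNA through a zinc-finger domain, often at short half-sites, and in many cases change activity when a small lipophilic ligand binds. Nematodes carry a greatly expanded set of them, and most of the expanded members have no known ligand or target. Receptors of this family in C. elegans are best known for roles in moulting, developmental timing, fat metabolism and the response to foreign compounds.

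To show the DNA under the second tier, the summit (the position of highest signal in a region) with 100 bp on each side is given for the 4 regions of highest signal on X and the 4 on chromosomes II to V that ranked in the top 1000 of both replicates. The sequences are the plus strand of the RefSeq WBcel235 assembly, which is ce11. Capitals mark AGCGCG and the word CCCTGC, and also GAGAGA and the word ACACAC, on either strand, and all other bases are in lower case.
F22H10.2 region, chrX:16682016-16682216: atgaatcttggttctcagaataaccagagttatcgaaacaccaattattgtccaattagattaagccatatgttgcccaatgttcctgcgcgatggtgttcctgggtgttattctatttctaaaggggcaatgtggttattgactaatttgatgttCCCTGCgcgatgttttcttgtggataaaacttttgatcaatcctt
sec-3 region, chrX:3100608-3100808: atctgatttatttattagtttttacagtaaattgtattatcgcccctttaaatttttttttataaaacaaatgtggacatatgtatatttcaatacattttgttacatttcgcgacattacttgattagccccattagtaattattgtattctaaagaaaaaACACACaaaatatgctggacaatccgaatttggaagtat
R106.8 region, chrX:17480537-17480737: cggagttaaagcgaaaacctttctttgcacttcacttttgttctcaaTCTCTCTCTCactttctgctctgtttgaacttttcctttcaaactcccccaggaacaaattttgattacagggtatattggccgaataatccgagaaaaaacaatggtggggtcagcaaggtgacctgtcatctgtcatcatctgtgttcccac
dpy-3 region, chrX:2145808-2146008: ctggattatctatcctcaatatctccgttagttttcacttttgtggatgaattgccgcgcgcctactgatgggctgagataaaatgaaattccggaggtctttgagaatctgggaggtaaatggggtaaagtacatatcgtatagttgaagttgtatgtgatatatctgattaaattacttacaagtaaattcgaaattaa
spp-7 region, chrIV:5416593-5416793: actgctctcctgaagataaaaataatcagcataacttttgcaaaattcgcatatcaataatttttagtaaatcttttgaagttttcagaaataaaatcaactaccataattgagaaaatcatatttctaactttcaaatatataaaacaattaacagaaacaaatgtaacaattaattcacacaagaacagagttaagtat
Y43F8C.22 region, chrV:19643115-19643315: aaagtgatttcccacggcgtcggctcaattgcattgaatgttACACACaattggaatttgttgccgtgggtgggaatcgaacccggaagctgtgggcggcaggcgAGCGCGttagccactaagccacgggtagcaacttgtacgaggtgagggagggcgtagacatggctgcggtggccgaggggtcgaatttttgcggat
tra-2 region, chrII:6959579-6959779: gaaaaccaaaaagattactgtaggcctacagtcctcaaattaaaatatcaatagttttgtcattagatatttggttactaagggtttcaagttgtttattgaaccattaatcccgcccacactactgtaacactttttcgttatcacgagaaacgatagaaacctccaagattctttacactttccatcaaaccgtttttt
abu-14 region, chrII:9227619-9227819: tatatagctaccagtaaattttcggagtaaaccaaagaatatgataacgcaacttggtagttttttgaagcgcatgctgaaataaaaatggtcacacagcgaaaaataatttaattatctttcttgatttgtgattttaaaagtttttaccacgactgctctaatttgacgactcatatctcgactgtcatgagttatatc
The sequences share no single word. The F22H10.2 region holds CCCTGC, the R106.8 region a run of the GA repeat read on the minus strand, and the Y43F8C.22 region both AGCGCG and ACACAC. The dpy-3, spp-7, tra-2 and abu-14 regions hold none of the 4 words, and the GC content of the spp-7 window was 23.9%, against 56.2% in the Y43F8C.22 window.

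The signal of the second tier ran from 30.7 to 42.1 with a median of 32.8, against a range of 13.8 to 30.7 and a median of 17.5 in the 29500 candidates below rank 500 (the lower ranks), and a range of 42.7 to 204 and a median of 63.0 in the IDR peaks. All 452 regions were 350 bp wide. Rank 49, in intergenic sequence nearest to the start of F22H10.2, had a signal of 42.1 and rank 50, upstream of spp-7, of 41.9. The last IDR peaks just above them were rank 48 at W01D2.3 with 42.7 and rank 47 at cbp-1 with 42.9. At the lower end, the last regions inside, near vab-7 and in aqp-6, had signals of 30.71 and 30.70, against 30.68 for each of the first 2 outside, in R01H2.2 and at vep-2. The value has no stated scale, so it serves here only to order regions within a list.

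Few second-tier regions ranked in the top 1000 of both replicates. A summit within 100 bp was found in the top 1000 of replicate 1 for 188 of 452 regions (41.6%, 95% Clopper-Pearson interval 37.0 to 46.3), where 3.05% of all 30000 candidates had one. In the top 1000 of replicate 2 it was found for 164 regions (36.3%, 31.8 to 40.9), against 2.98% of all candidates. Both replicates held a match for 30 regions (6.64%, 4.52 to 9.34), against 0.24% of all candidates, while 158 matched in replicate 1 only, 134 in replicate 2 only and 130 in neither. With the top 500 of each replicate in place of the top 1000, the shares were 28.98% for replicate 1, 24.1% for replicate 2 and 2.65% for both. In the next 452 ranks below, the top 1000 shares were 23.2%, 24.1% and 0.442%. In the lower ranks, 2 of 29500 regions matched in both, and among the IDR peaks 40 of 48. Since the pooled signal chose the regions, shares above those of all candidates follow from the choice. All intervals cover counting error over regions only.

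The share matched in both replicates fell with rank within the second tier. Matches in both replicates made up 40.4% of ranks 49 to 100, and then 6, 2, 1 and 0 regions of each further 100 ranks. The count of 0 of 100 allows a share of up to about 3%, and its Clopper-Pearson interval reached 3.62%. Of the 30 regions that matched in both, 21 stood in the first 52 ranks. Their median signal was 38.6, against 32.1 in the 130 regions that matched in neither. Rank here is that of the pooled signal, which contains both replicates. A fall with rank and a higher signal of regions matched in both thus follow from the ranking and are no separate result.

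The whole replicate lists of 30000 regions held a summit within 100 bp for 412 regions in replicate 1 and 400 in replicate 2. Both held one for 360 regions (79.6%), against 19.4% of the lower ranks, and every second-tier region had a match in at least 1 of the lists. Within 350 bp, the width of a region, the counts were 442 and 434. The median rank of a matched region was 1294 (replicate 1) and 1499.5 (replicate 2), and the typical second-tier region lay outside the top 1000 of each. Across the 360 regions, ranks in the replicates ran opposite to each other (Spearman rho −0.554), against a rho of −0.011 over the 5734 lower-ranked regions with both values. The regions of a narrow band of pooled signal share that sum, so a high rank in 1 replicate goes with a low rank in the other by construction. The pooled signal was close to the sum of the replicate signals, with a median ratio of 1.04 and quartiles of 1.00 and 1.11 over the 360 regions.

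**Figure D1:**
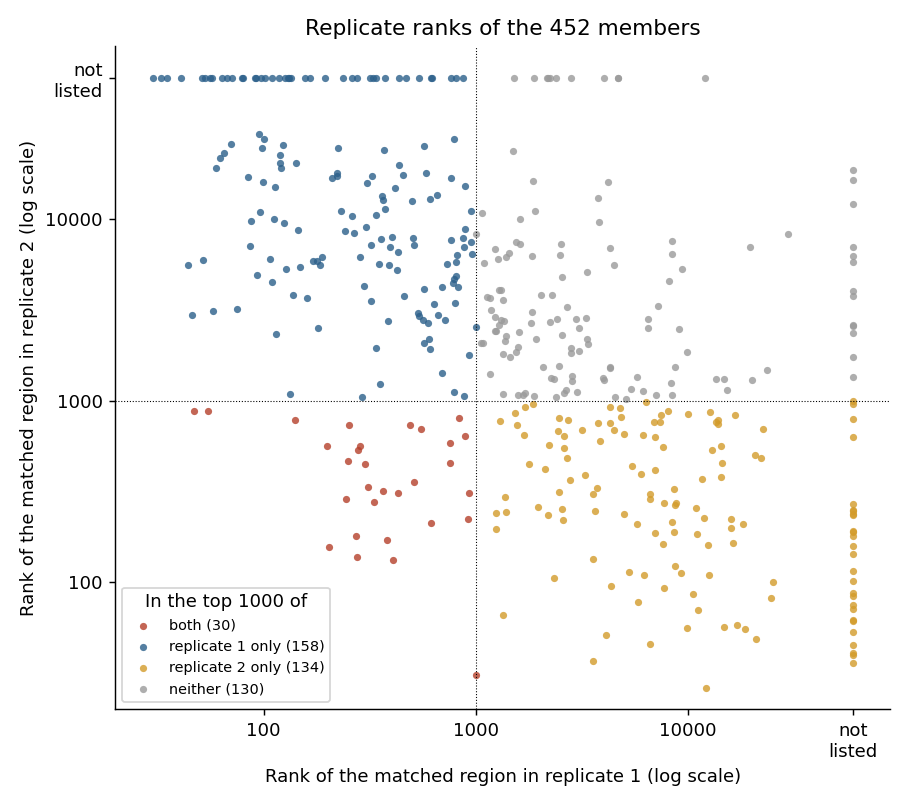
Rank of the best matched region in replicate 1 (x axis, log scale) and in replicate 2 (y axis, log scale) for each of the 452 second-tier regions, with points at "not listed" where no summit lay within 100 bp. Dotted lines mark rank 1000, and 30 regions lie in the lower left square. In the top 1000, 158 matched in replicate 1 only, 134 in replicate 2 only and 130 in neither.

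Read from the other side, 188 of the top 1000 regions of replicate 1 (18.8%) lay at a second-tier summit, 678 at lower ranks and 48 at IDR peaks, and 86 lay at none of the pooled candidates. For replicate 2 the counts were 164 at the second tier, 690 at lower ranks, 40 at IDR peaks and 106 at none. Most of each replicate's top 1000 thus lay at pooled candidates of lower rank than the second tier.

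**Figure D2:**
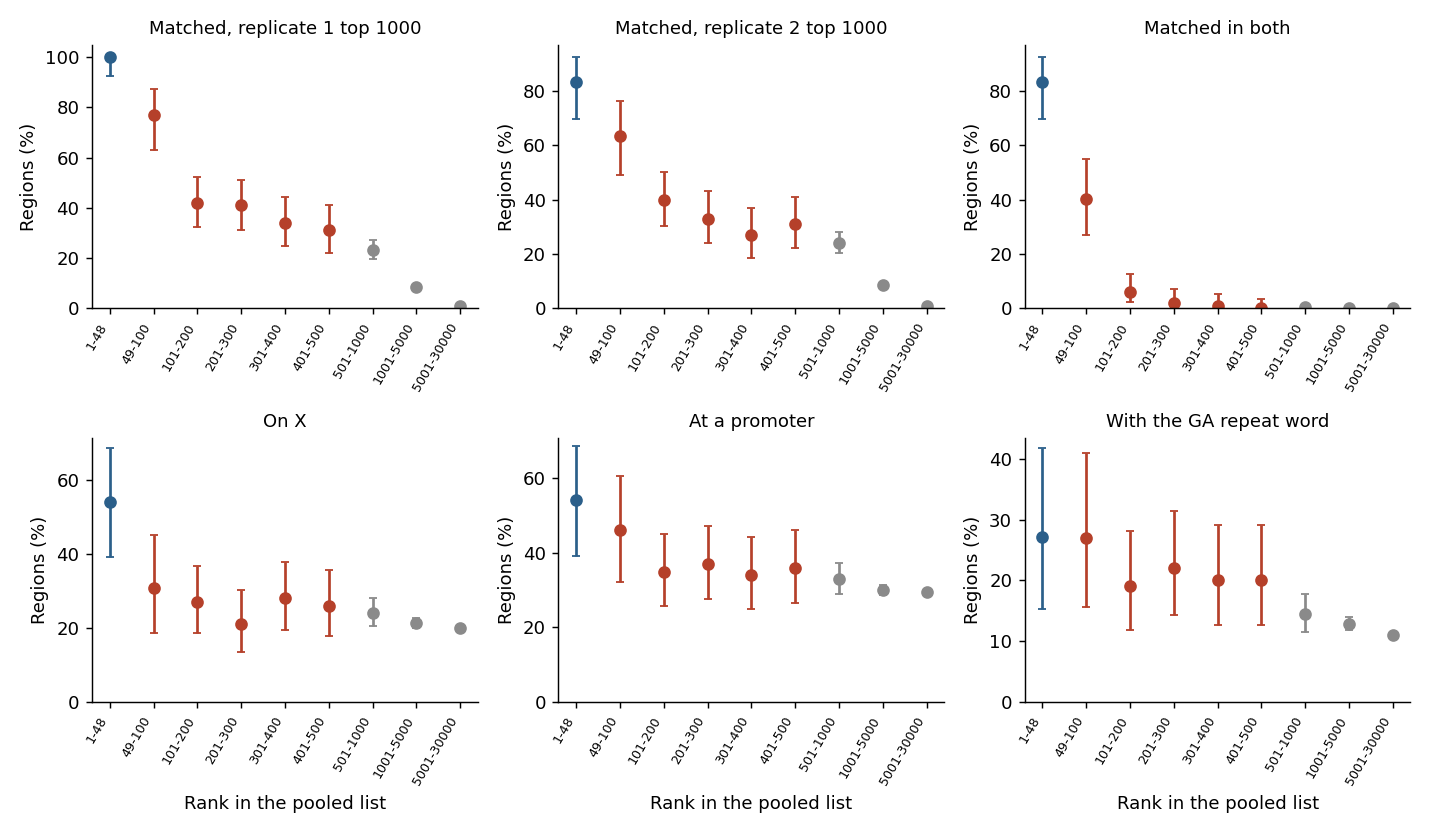
Share of regions (%) in 9 bins of pooled rank, with 95% Clopper-Pearson intervals, for a match in the top 1000 of replicate 1, of replicate 2 and of both, for summits on X, for summits at a promoter and for the word GAGAGA. Red points are second-tier bins, blue the IDR peaks and grey the lower ranks; the share matched in both was 40.4% in ranks 49 to 100 and 6% in the next 100 ranks, against 83.3% in the IDR peaks.

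The 30 regions found in the top 1000 of both replicates lay near genes of many kinds. At X 16681941 to 16682290 the F22H10.2 region had a pooled signal of 42.1, with 26.9 in replicate 1 (rank 47) and 17.03 in replicate 2 (rank 878). At IV 5416518 to 5416867 the summit lay 897 bp upstream of spp-7, a gene for a saposin-like protein of a family that includes antimicrobial members, with signals of 41.9 in the pool, 25.7 in replicate 1 (rank 55) and 17.02 in replicate 2 (rank 882). Both of these regions stood far higher in replicate 1. The reverse held in an intron of tra-2, a membrane receptor gene of sex determination that promotes female fate, where the region at II 6959504 to 6959853 had a pooled signal of 41.4 and ranked 998 in replicate 1 and 31 in replicate 2.

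The ranks in the replicates lay closer together at rps-20, lin-9 and sec-3, and at several of the regions that follow them. The region at I 14469199 to 14469548 lay between the divergent starts of the ribosomal protein gene rps-20 (271 bp upstream) and ekl-4 (126 bp upstream), with a pooled signal of 41.4 and ranks 245 in replicate 1 and 287 in replicate 2. The region at III 8904099 to 8904448 lay 143 bp upstream of lin-9, which encodes a subunit of a conserved complex that represses cell-cycle and vulval fate genes, and ranked 203 in replicate 1 and 156 in replicate 2. At X 3100533 to 3100882 a summit 856 bp upstream of sec-3, an exocyst subunit gene, and inside the zinc-finger gene ztf-13 ranked 409 in replicate 1 and 132 in replicate 2. In these 3 regions the replicate signals all lay between 19.4 and 21.4.

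Other regions of high signal that matched in both included abu-14 (II 9227544 to 9227893, pooled signal 40.5, ranks 365 in replicate 1 and 318 in replicate 2), a gene of the family activated when the unfolded protein response is blocked. A summit at X 17480462 to 17480811 lay 17 bp upstream of the non-coding gene R106.8 and 6103 bp from tps-1, a trehalose synthesis gene, with ranks of 272 and 179. An exon of ppm-1.H, a protein phosphatase gene, held a region at IV 12264876 to 12265225 with ranks of 429 and 310. The promoter of eif-3.C, a subunit gene of translation initiation factor 3, held one at I 9979736 to 9980085 with ranks of 512 and 359. Ranks in replicate 1 stand before those in replicate 2 in these sentences, and the lowest of them was 512.

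The region at V 19643040 to 19643389 (pooled signal 41.5) lay 28 bp upstream of the snoRNA gene Y43F8C.22. That at I 9383523 to 9383872 (40.9) lay inside ppfr-1, a protein phosphatase regulatory gene. Its summit was 150 bp from the antisense RNA gene anr-20 and 528 bp upstream of the non-coding gene F16A11.7. Further regions that matched in both lay at tag-340 and nhl-2, a gene for a TRIM-NHL protein that acts with microRNAs (III 4899777 to 4900126, 38.96), in tbc-9 (IV 13478026 to 13478375, 38.9) and near Y50D4C.12 (V 975304 to 975653, 38.8). These 15 regions carried the highest pooled signals among the 30. The remaining 15 had signals from 31.9 to 38.5. They included dpy-3, a cuticle collagen gene (261 bp upstream of the start), and, named after their values were seen, lin-59, a trithorax-related gene (506 bp upstream), pxn-1, a peroxidasin gene (377 bp upstream), and an intron of the cytochrome P450 gene cyp-33B1.

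Other regions of similar pooled signal reached the top 1000 of 1 replicate only. The region in an intron of mdt-26, a Mediator subunit gene (II 5661632 to 5661981, pooled signal 41.8), ranked 619 in replicate 1 with a signal of 18.2. It had no summit within 100 bp in replicate 2, which does not show that replicate 2 had no signal there. The region 36 bp upstream of his-37, a histone H4 gene (V 9546894 to 9547243, 41.4), ranked 58 in replicate 1 (25.5) and 3117 in replicate 2 (14.1). An exon of the neuropeptide receptor gene npr-29 (III 9209303 to 9209652, 41.9), nearest to the start of ZC84.1, ranked 1349 in replicate 1 (16.4) and 66 in replicate 2 (23.2). A region in an exon of B0272.4 (X 9429208 to 9429557, 39.8) ranked 1239 in replicate 1 (16.6) and 196 in replicate 2 (20.4). The last 3 of these thus had a listed region in each replicate, which alone does not show signal above background. The B0272.4 region lay a little outside the top 1000 of replicate 1.

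Of the remaining regions among the 15 of highest signal, those in an intron of pqn-41 (III 1921331 to 1921680, 41.02), near Y52B11A.11 (I 11074942 to 11075291, 40.7), in an intron of C06E2.1 (X 8873757 to 8874106, 40.7) and in an exon of mdl-1 (X 6742338 to 6742687, 40.7) matched in replicate 1 only. The highest regions that matched in neither top 1000 lay in an exon of C15B12.9 (X 6469783 to 6470132, 36.7), in an exon of odr-1, a guanylyl cyclase gene of olfactory neurons (X 13548246 to 13548595, 36.4), at a pseudogene near T11G6.5 (IV 10845473 to 10845822, 36.4), upstream of K01F9.2 (III 8877914 to 8878263, 36.2) and upstream of the chemoreceptor gene srbc-55 (V 15830399 to 15830748, 36.1). Their ranks in the replicates ran from 1079 to 7089, and the T11G6.5 region had no summit within 100 bp in replicate 1.

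X held 118 of the 452 second-tier summits (26.1%, 22.1 to 30.4), against 20.3% of the lower ranks (19.9 to 20.8) and 54.2% of the IDR peaks (39.2 to 68.6). The interval of the second tier overlapped neither of these, but it overlapped that of the next 452 ranks below, where X held 23.2% (19.4 to 27.4). Chromosome V held 92 summits, IV 71, II 64, III 62 and I 45. The share on I was 9.96% (7.35 to 13.1), against 13.8% of lower ranks and 12.4% of the next 452 ranks (9.50 to 15.8). The intervals of the second tier and of the next 452 ranks overlap for I. The shares on II, III, IV and V had intervals that included those of lower ranks. Within the second tier X held 30.8% of ranks 49 to 100 (18.7 to 45.1) and 26 of the last 100 ranks, against 54.2% at the IDR peaks just above.

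By replicate support the shares on X were as follows. Of the 30 regions that matched in both replicates 4 lay on X (13.3%, 3.76 to 30.7), against 26.6% of those in replicate 1 only, 26.9% in replicate 2 only and 27.7% in neither. The interval over 30 regions is wide and includes the other 3 shares. The outermost 25% of bases at each chromosome end held 36.9% of second-tier summits (32.5 to 41.6), against 35.6% of the next 452 ranks, 42.4% of lower ranks and 24 of 48 IDR peaks.

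**Figure D3:**
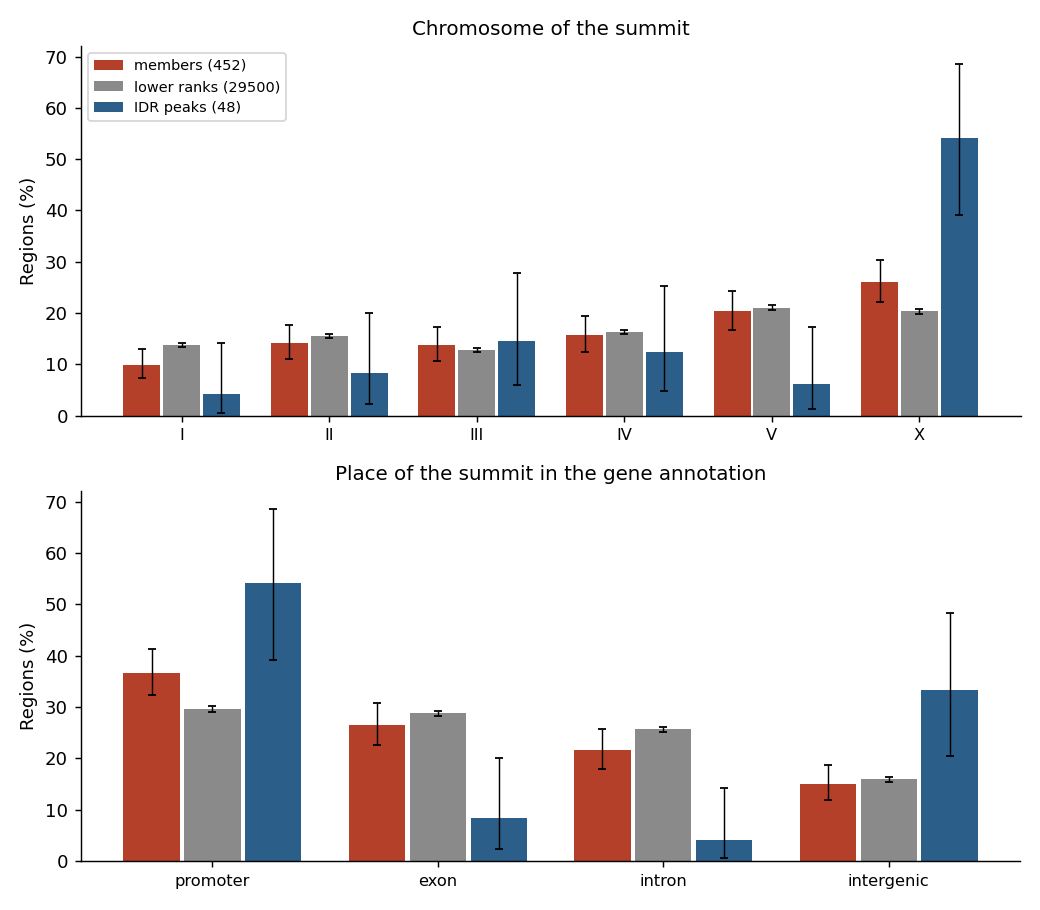
Share of summits (%) by chromosome (top) and by place in the gene annotation (bottom) for the 452 second-tier regions (red), the lower ranks (grey) and the 48 IDR peaks (blue), with 95% Clopper-Pearson intervals. X holds 26.1% of the second tier, against 20.3% of lower ranks and 54.2% of IDR peaks, and promoters 36.7%, against 29.6% and 54.2%.

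Promoter summits were those up to 1000 bp upstream, or up to 100 bp downstream, of the start of a gene of any class. Promoters held 166 second-tier summits (36.7%, 32.3 to 41.4), against 32.5% of the next 452 ranks (28.2 to 37.1), 29.6% of lower ranks (29.1 to 30.2) and 54.2% of IDR peaks (39.2 to 68.6). Of the other summits 120 lay in exons (26.5%), 98 in introns (21.7%) and 68 between genes (15.04%), against 28.8%, 25.7% and 15.9% of lower ranks. Of the IDR peaks 33.3% were intergenic and 8.33% exonic. A protein-coding gene contained 271 of the summits (59.96%), against 65.3% of lower ranks and 20.8% of IDR peaks.

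The promoters of protein-coding genes alone held 115 summits (25.4%, 21.5 to 29.7), against 21.2% of the next 452 ranks (17.6 to 25.3) and 20.4% of lower ranks. On autosomes the share was 28.1% (23.4 to 33.3), against 21.2% of autosomal lower ranks. On X it was 17.8% (11.4 to 25.9), against 17.5% of lower ranks on X. Intergenic summits made up 19.5% of the second tier on X, against 19.7% of lower ranks on X. A pair of divergent coding starts both lay within promoter distance of 21 summits (4.65%, 2.90 to 7.01), against 2.88% of the next 452 ranks (1.54 to 4.87) and 1.81% of lower ranks (1.66 to 1.97), and 20 of the 21 were autosomal. The intervals of the second tier and of the next 452 ranks overlap for each of these promoter classes, and X was not tested against autosomes.

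**Figure D4:**
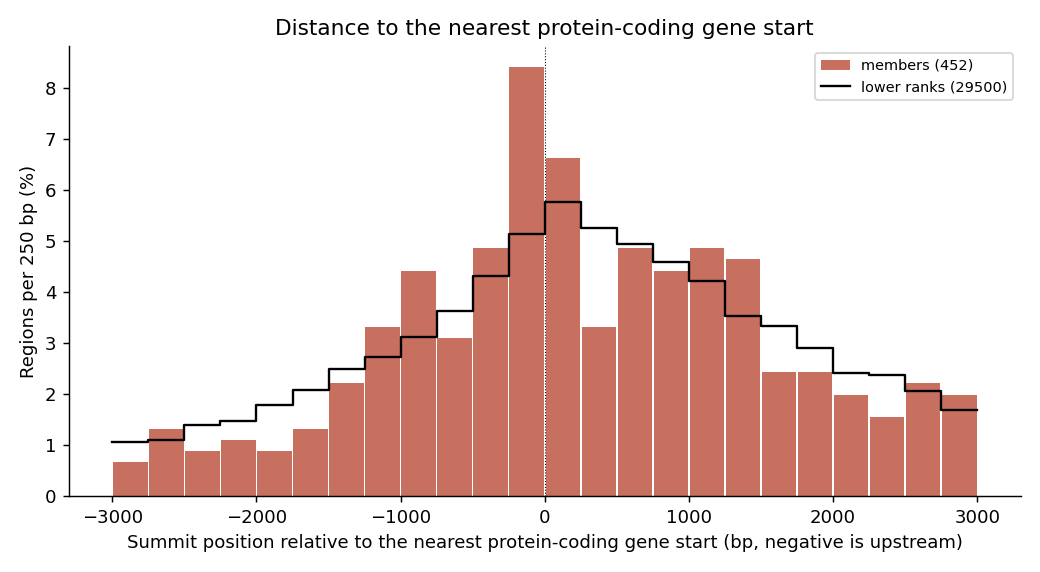
Position of the summit relative to the nearest protein-coding gene start (x axis, bp, negative is upstream, within 3000 bp), as the share of regions in each 250 bp (y axis, %), for the 452 second-tier regions (red bars) and the lower ranks (black line). The highest bar is the 250 bp upstream of the start, with 38 second-tier regions (8.41%), against 5.14% of lower ranks.

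The nearest protein-coding starts of the 452 summits belonged to 443 genes. The median distance to the start was 1293.5 bp, against 1511 bp in lower ranks and 1684 bp in the IDR peaks. Second-tier promoters covered 138 of the 6207 protein-coding genes with any candidate at the promoter (2.22%), and 222 of 9930 genes of all classes (2.24%). These shares are the background for each gene list below.

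Among genes of protein synthesis, ribosomal protein genes had a second-tier summit at 3 of 33 promoters with a candidate (9.09%, of 81 genes listed), and an IDR peak at 3. The rps-20 region matched in both replicates. The region 95 bp upstream of rps-1 (III 4475648 to 4475997, pooled signal 34.5) ranked 70 in replicate 2 and 11087 in replicate 1, and that 437 bp upstream of rps-18 (IV 14825067 to 14825416, 33.6) ranked 3316 in replicate 1 and 2850 in replicate 2. Translation factors had 1 of 12, eif-3.C. The chaperone list had 1 of 20, cct-8, a chaperonin subunit gene (IV 1094229 to 1094578, 34.5), which ranked 594 in replicate 1 and 2666 in replicate 2. Histones had 1 of 12, his-37. Mitochondrial respiration had 1 of 18, mev-1, a succinate dehydrogenase subunit gene (III 10333955 to 10334304, 31.9). Each of these lists rests on 1 to 3 genes.

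Nuclear hormone receptor genes had a second-tier summit at 0 of 84 promoters with a candidate, which allows a share of up to 3.57%. The gene nhr-237 itself, at V 1625189 to 1626820, had no candidate of any rank within 5000 bp, and the nearest second-tier summit lay 228626 bp away. Chemoreceptors had 6 of 418 (1.44%), with sri-50 and sri-53 sharing the region of highest signal (II 3202717 to 3203066, 36.8), and srbc-55 and srlf-24 following. Lectins and innate immunity genes had 2 of 117, spp-7 and clec-151. Cuticle collagens had 1 of 70, dpy-3, and neuropeptides other than insulins 1 of 48, nlp-19 (X 10958600 to 10958949, 33.3). The other 17 lists, among them cytochrome P450, lipid metabolism, homeobox, intestine, muscle, germline, heterochronic and moulting, and dosage compensation and sex determination genes, had none. Small lists have wide counting error, and a share near 2.22% is that of all protein-coding promoters.

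Genes for small structural RNAs had a few second-tier summits close by. A tRNA, snRNA or snoRNA gene lay within 500 bp of 10 summits (2.21%, 1.07 to 4.03), against 2.65% of the next 452 ranks, 1.39% of lower ranks and 14.6% of IDR peaks. For snRNA genes alone the count was 4 (0.885%, 0.242 to 2.25), against 1 of the next 452 ranks (0.221%, 0.0056 to 1.23), 0.112% of lower ranks (0.077 to 0.157) and 6.25% of IDR peaks. They were sls-2.1, sls-2.8 and sls-2.3, which encode spliced leader RNAs added to the 5′ end of other transcripts by trans-splicing, and smy-9, which encodes a small nuclear RNA. The interval for snRNA genes lay above the share in all lower ranks and overlapped that of the next 452. The other 2 classes did not share this. For snoRNA genes the count was 4 (0.885%, 0.242 to 2.25), against 0.664% of the next 452 ranks and 0.553% of lower ranks. For tRNA genes it was 2 (0.442%, 0.0536 to 1.59), against 1.77% of the next 452, 0.732% of lower ranks and 6.25% of IDR peaks.

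The sls-2.1 region at II 5844661 to 5845010 had a pooled signal of 41.3 and ranked 33 in replicate 1 with 31.7. It had no summit within 100 bp in replicate 2. The sls-2.8 region at III 12250264 to 12250613 had 40.5, ranked 53 in replicate 2 with 23.9 and had no summit within 100 bp in replicate 1. Both summits lay within 29 bp of the RNA gene. The sls-2.3 region at II 5544094 to 5544443 had 34.3, with ranks 84 in replicate 1 and 17161 in replicate 2, and the smy-9 region at IV 13602135 to 13602484 had 33.0, with ranks 2699 and 3276 in the same order. None of the 4 matched in the top 1000 of both replicates. The summit windows of sls-2.1 and sls-2.3 are also among the 5 second-tier windows with another copy in the genome of at least 90% identity over at least 100 bp.

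The 4 snoRNA genes were Y43F8C.22, C07A9.14, Y40B1A.6 and ZK930.15, and the region of Y43F8C.22 was the only one of the 10 to match in both replicates. Both tRNA regions lay on X, at X 16209560 to 16209909 (32.2) and X 16297735 to 16298084 (31.5). MicroRNA genes within 500 bp were mir-2214 and cel-mir-44, and linc-91 was the only long intergenic RNA gene. Genes annotated as other non-coding RNA lay within 500 bp of 55 summits (12.2%, 9.30 to 15.5), against 11.5% of the next 452 ranks (8.71 to 14.8), 7.77% of lower ranks and 20.8% of IDR peaks. On X the share was 16.9%, against 12.4% of lower ranks on X, and on autosomes 10.5%, against 6.59% of autosomal lower ranks. No summit lay near a ribosomal RNA gene.

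Sequence words were counted on both strands in windows of 100 bp on each side of each summit. GAGAGA, a GA dinucleotide repeat, was present in 95 second-tier windows (21.02%, 17.3 to 25.1), against 14.6% of the next 452 ranks (11.5 to 18.2), 11.3% of lower ranks (10.97 to 11.7) and 27.1% of IDR peaks (15.3 to 41.8). The intervals of the second tier and of the next 452 ranks overlap. The share was 26.9% in ranks 49 to 100 and 20 of the last 100 ranks, against 14.4% of the next 500 ranks below. It was 20.3% on X and 23.3% among the 30 regions that matched in both replicates. At promoters 47 of 166 windows held it (28.3%), against 13.3% of promoters in lower ranks, between genes 26.5%, against 10.7%, in introns 18.4%, against 9.82%, and in exons 12 of 120, against 10.97%. In exons the shares were close. The split by place was made against all lower ranks, not against the next 452.

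ACACAC followed with 55 windows (12.2%, 9.30 to 15.5), against 10.2% of the next 452 ranks (7.55 to 13.3), 7.25% of lower ranks (6.96 to 7.56) and 31.3% of IDR peaks. The 4 words that follow had been taken from the IDR summits, so their high share there is no separate result. CCCTGC was present in 15 second-tier windows (3.32%, 1.87 to 5.41), against 2.26% of lower ranks and 33.3% of IDR peaks, and CTGCGC in 3.76%, against 2.33% and 29.2%. CCCTTC was present in 6.42%, against 4.78% and 31.3%, and AGCGCG in 17 windows (3.76%, 2.21 to 5.95), against 2.00% (1.85 to 2.17) and 18.8%. CCCTGC and CTGCGC can overlap in a shared stretch and are not independent. For AGCGCG the interval lay above the share in all lower ranks, but the next 452 ranks held it in 3.54% (2.04 to 5.68), close to the second tier. For the other 3 words the interval included the share in all lower ranks.

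By replicate support, CCCTGC was present in 4 of the 30 that matched in both (13.3%, 3.76 to 30.7), against 1 of the 130 that matched in neither (0.769%, 0.0195 to 4.21). These intervals overlap. The half-sites AGGTCA and AGTTCA, bound by many nuclear hormone receptors, had intervals that included the share in lower ranks. AGGTCA was present in 5.31% (3.43 to 7.80), against 5.01%, and AGTTCA in 12.2% (9.30 to 15.5), against 14.4%. A run of 8 T was present in 13.3% (10.3 to 16.8), against 18.0% of lower ranks and 12.2% of the next 452 ranks (9.30 to 15.5). TGATAA was present in 17.04%, against 17.9%, CACGTG in 4.87%, against 3.60%, GGGCGG in 4.87%, against 3.18%, and TTCNNGAA in 11.1%, against 13.3%. Presence or absence of a word in this window says nothing of which factor was bound.

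**Figure D5:**
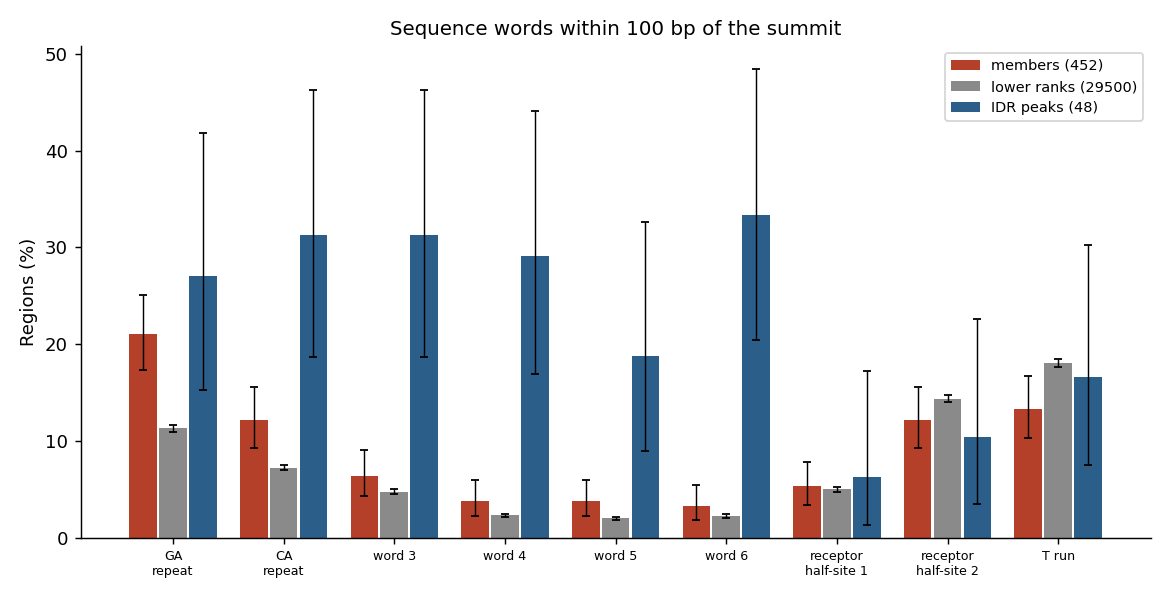
Share of summit windows (%) that hold a word on either strand, with 95% Clopper-Pearson intervals, for the 452 second-tier regions (red), the lower ranks (grey) and the 48 IDR peaks (blue). The GA repeat is GAGAGA and the CA repeat ACACAC; word 3 is CCCTTC and word 4 is CTGCGC; word 5 is AGCGCG and word 6 is CCCTGC; half-site 1 is AGGTCA and half-site 2 is AGTTCA. The GA repeat is present in 21.02% of second-tier windows, against 11.3% of lower ranks and 14.6% of the next 452 ranks, which are not drawn apart.

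The median GC content of the windows was 37.8%, against 36.3% in lower ranks and 40.3% in the IDR peaks. At least 50% of the window was soft-masked as repeat or low-complexity sequence in 26 second-tier regions (5.75%, 3.79 to 8.31), against 7.96% of the next 452 ranks (5.64 to 10.9), 14.98% of lower ranks (14.6 to 15.4) and 6.25% of IDR peaks. A further copy of at least 90% identity was found for 5 second-tier windows (1.11%, 0.360 to 2.56), for 5 of the next 452 ranks and for 4 of 48 IDR peaks. Masked windows made up 9% of the last 100 ranks of the second tier, 8.2% of the next 500 ranks and 16.02% of candidates below rank 5000.

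No 2 second-tier regions overlapped, none overlapped an IDR peak, and 11 had another second-tier summit within 2000 bp. In each of the 3 blocks of 452 ranks below, the same count within the block was 10, 12 and 8. The only region within 1000 bp of an IDR summit was that of sls-2.3, at 714 bp. The only place with 3 regions, each within 2000 bp of the next, was mdl-1 on X, a gene for a MAD-like repressor of the basic helix-loop-helix class, where summits spanned 2865 bp from X 6740968 to 6743833. They had pooled signals of 30.8 (rank 477), 40.7 (rank 63) and 38.3 (rank 79). In the top 1000 the first and the third matched in replicate 2 only and the second in replicate 1 only.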

How the data were processed

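Chromatin of whole L3 larvae carrying eGFP-tagged nhr-237 was profiled in 2 biological replicates. Per the file lists, the authors deposited regions called on each replicate and on the pooled replicates, 30000 each, and an IDR list. The IDR list held 48 regions in ce11 and 60 in ce10. The signal values used are those deposited by the authors. Not given in the sources used here were their scale, the peak caller, the aligner, the IDR threshold and the read depth, which left no basis for intervals from reads. The lists were ranked by signal, with ties by chromosome and start.

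Summits within 100 bp were counted as matched. Annotation was Ensembl release 115 on WBcel235, without piRNA genes, and positions are 1-based. Words were searched on both strands within 100 bp of the summit. Copies were sought with blastn 2.17.0 (identity of at least 90% over at least 100 bp). Python 3.11.15, numpy 2.4.6, pandas 2.3.3, scipy 1.17.1 and matplotlib 3.10.9 were used, and matching, location and word search were checked on simulated regions. Shares carry Clopper-Pearson intervals at 95% and no test between sets was made. A count of 0 allows a share of up to 3 counts of the total, an approximate limit a little below the Clopper-Pearson one. The regions, the 27 gene lists, the 13 words and the comparisons were chosen with earlier results of these data known.

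Named genes were those of the nearest protein-coding start, or of the gene that holds the summit, at the 15 regions of highest signal, the 15 of highest signal matched in both replicates, the 5 highest matched in neither and the 3 highest matched in each replicate alone. List members with a summit at the promoter (at most 4 per list by signal), small RNA genes within 500 bp, the regions at the rank limits and places with 3 or more regions were added. At some of these regions a non-coding gene nearby was named too. Alternatives changed the rank limits, the replicate used, the matching distance, the replicate depth, the build, the promoter, the window and the copy identity.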

Additional observations from a re-analysis of the deposited data

How the results depend on the processing

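Of 86 recomputed values, 59 moved by less than their counting interval or 1.5 times and 27 by more. Leaving out regions that overlap an IDR peak or a stronger second-tier region removed no region. Those values could not move and are all among the 59. With ranks 49 to 250, matches in the top 1000 of replicate 1, replicate 2 and both were 51.0%, 45.5% and 13.9%, and CCCTGC 6.44%; with ranks 49 to 1000 the matches were 32.0%, 29.8% and 3.36%. With the top 500 of each replicate they were 28.98%, 24.1% and 2.65%, and with the top 5000 they were 71.7%, 63.9% and 38.3%. Summits within 50 bp gave 31.0% for replicate 2, and 22 regions (4.87%) matched in both. Within 200 bp 39 regions (8.63%) matched in both, against 30 within 100 bp. These shares for both are among the 59. Among regions matched in both, X held 13.3%, promoters 46.7%, CCCTGC 13.3%, multi-copy windows 0% and ribosomal protein promoters 1. Promoters held 25.7% with 500 bp, 55.5% with 2000 bp and 25.4% with protein-coding starts only, and ribosomal protein promoters were 5 with 2000 bp. Within 50 bp on each side AGCGCG was in 1.77% and CCCTGC in 1.33%. At 80% identity 4.65% of windows were multi-copy. Ranks 49 to 500 of each replicate's own list, leaving out the other, gave 2 and 5 ribosomal protein promoters. Of those ranks, 23.2% to 23.9% lay on X and 33.6% to 34.1% at promoters. The lower ranks of the pooled list, which is a different list, held 20.3% and 29.6%. For the lower share on X (105 of 452, without replicate 1) the interval was 19.4 to 27.4, which includes 20.3%. No paired analysis was possible because the 2 replicates form 1 group and no result comes from a test. The depth is unknown, and 2 replicates of 1 strain give no spread between animals.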

Other observations

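Genes that contain a second-tier summit, as exon, intron or promoter within the gene, were listed after their values were seen. A summit lay inside 271 of 10753 protein-coding genes that contain any candidate (2.52%). Heterochronic and moulting genes had 4 of 17: nhr-25 and nhr-23, receptor genes needed for moulting, lin-14, a timing gene of larval fates, and bed-3. Of these, bed-3 (IV 9918315 to 9918664, pooled signal 31.5) matched in replicate 2 only and the other 3 in neither top 1000, with pooled signals from 31.0 to 31.8. Nuclear hormone receptors had 5 of 171 (2.92%), adding daf-12 (X 10665391 to 10665740, 34.6), the steroid receptor gene of dauer formation, nhr-66 and nhr-27. Chemoreceptors had 11 of 665 (1.65%), among them odr-10, the diacetyl receptor gene (X 6865116 to 6865465, 33.4). Muscle genes had 2 of 27, unc-87 and tnt-3. Long genes offer more places for a summit, and gene length was not tested.

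Besides mdl-1 with 3, the nearest protein-coding start was shared by 2 second-tier summits at C15B12.9, lin-14, npax-3, pqn-41, shw-1, tax-6 and tra-2. The RNase P RNA gene rpr-1, also named after its value was seen, contained a summit at I 13463838 to 13464187 with a pooled signal of 36.3, which ranked 181 in replicate 1 and 2503 in replicate 2. Pseudogenes lay within 500 bp of 17 summits (3.76%, 2.21 to 5.95), against 1.99% of the next 452 ranks and 4.23% of the lower ranks.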
